A study of Homo sapiens with 6 samples.

Results

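The mRNA levels of 9 enzymes that supply, balance and clean the pool of DNA building blocks were followed in HCT116 cells after oxaliplatin. The genes were RRM1, RRM2, RRM2B, TYMS, TK1, DUT, DCK, DCTPP1 and SAMHD1, chosen by symbol from the 27942 genes of the deposited table, and all 9 were among the 13727 genes that passed the filter on low counts. HCT116 is an established human colorectal carcinoma line with wild-type p53 and mutated CTNNB1, so every value describes 1 cell line in culture. Cells were left untreated (NT) or received 0.5 µM oxaliplatin, a platinum compound that crosslinks DNA, for 24 h (OXA), and 3 libraries were sequenced per condition. Both groups grew in RPMI with fetal serum, and polyadenylated RNA was used for stranded libraries. No fluoropyrimidine was given. The sources do not say whether the 3 libraries of a group came from separate cultures, so p-values measure the spread between these libraries, which may be technical.

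The raw counts of a library summed to between 32979521 and 40967880. NT library 1 stood apart from the other NT libraries, with a chi-square per gene of 83.1 and 75.7 against libraries 2 and 3, where NT libraries 2 and 3 differed by 21.4. The epithelial marker EPCAM had between 8451 and 10828 raw counts in every library, whereas CDX1, an intestinal transcription factor, had 0 in all 6. VIL1, another epithelial marker, had between 39 and 95. Summed leucocyte markers had between 2 and 19 and summed endothelial markers between 18 and 48. Summed fibroblast markers had between 114 and 280, mostly from COL1A1 (107 to 273). CDKN1A, the p53-induced inhibitor of cyclin-dependent kinases, rose 7.60-fold with the treatment (log2 fold change 2.93 with a standard error, SE, of 0.15, edgeR adjusted p = 0.000445). Levels are given below as normalized read counts, that is raw counts scaled by 1 TMM factor per library, and as mean ± SD with n = 3. Fold changes are OXA over NT, and a gene is called when its edgeR adjusted p, corrected over all genes tested, is under 0.05.

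Ribonucleotide reductase makes deoxyribonucleotides from ribonucleotides, and pairs the large subunit RRM1 with a small subunit that carries the radical needed for catalysis. RRM2 is the small subunit of dividing cells, rich in S phase and degraded after it, and RRM2B (p53R2) is a p53-induced small subunit that also serves cells outside S phase. Thymidylate synthase, TYMS, methylates dUMP to dTMP and is the enzyme blocked by the active metabolite of 5-fluorouracil, while DUT hydrolyses dUTP and so both feeds TYMS with dUMP and keeps uracil out of DNA. TK1 and DCK recover thymidine and deoxycytidine by phosphorylation. DCTPP1 hydrolyses dCTP and its modified forms, and SAMHD1 cleaves deoxynucleoside triphosphates of every base.

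Upstream sequences are shown for RRM1 and RRM2, the partner subunits, and for TYMS, since genes of this pathway are known for E2F sites and CCAAT boxes near their start sites. RefSeq (GRCh38.p14) gave a window of 250 bases before a listed start site for 8 of the 9 genes. The letters searched on both strands were CCAAT, the E2F forms TTTCCCGC, TTTCGCGC, TTTGCCGC and TTTGGCGC, and the cell cycle element forms TTTGAA and TTCGAA. Capitals mark a whole match, every stretch is written 5′ to 3′ on the plus strand, and for RRM2 only the 120 bases next to the start that lie in no annotated untranslated region are given. RRM1 is at chr11:4094435-4094684, RRM2 at chr2:10122619-10122738 and TYMS at chr18:657403-657652.
RRM1: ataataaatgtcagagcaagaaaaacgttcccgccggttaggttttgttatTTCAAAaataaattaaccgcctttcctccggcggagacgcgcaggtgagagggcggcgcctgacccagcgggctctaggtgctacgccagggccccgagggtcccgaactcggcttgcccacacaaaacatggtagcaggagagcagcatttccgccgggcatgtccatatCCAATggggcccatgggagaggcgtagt
RRM2: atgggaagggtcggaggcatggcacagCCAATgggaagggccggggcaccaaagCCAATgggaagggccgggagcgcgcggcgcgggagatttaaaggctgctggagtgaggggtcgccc
TYMS: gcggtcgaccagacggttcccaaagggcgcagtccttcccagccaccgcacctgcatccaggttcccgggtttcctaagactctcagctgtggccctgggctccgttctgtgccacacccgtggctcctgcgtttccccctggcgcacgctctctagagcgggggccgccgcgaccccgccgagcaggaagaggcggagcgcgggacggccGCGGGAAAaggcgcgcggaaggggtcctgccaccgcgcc
RRM1 held 1 CCAAT and 1 TTCAAA, the reverse complement of TTTGAA. The full RRM2 window held 3 CCAAT, of which 2 lie in the printed stretch. TYMS held 1 E2F match, GCGGGAAA on the plus strand, which lies 39 to 32 bases before the start. TK1 and SAMHD1 held 2 CCAAT each, and DUT, DCK and DCTPP1 held no match to these letters. The windows of RRM2, DUT and DCK end at the canonical start but lie wholly inside the annotated gene, which begins further upstream. Sequence before the first base of these genes was not searched. For DUT 4 start sites were listed, and only the window of the one nearest the canonical start was searched. The RefSeq start used for DCTPP1 lies 230 bases from the start of its canonical transcript, inside the gene. Its window thus lies largely within the gene, and the bases before the canonical start were mostly not searched. The start used for RRM1 lies 114 bases from the canonical start. Among 35116 RefSeq windows of the same length, 32.0% held a CCAAT, 2.79% one of the E2F forms and 14.3% one of the cell cycle element forms. These matches describe letters in a window and are not measured binding sites.

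Of the 9 enzymes, RRM2B rose and DUT fell, and 7 were not called. RRM2B was higher 2.12-fold and DUT fell to 0.568 of its untreated level. Called genes made up 5.07% of all genes tested, 2.78% higher and 2.29% lower. RRM1, RRM2 and DCK had lower values in every OXA library than in any NT library and did not pass the threshold, but each passed it when same-numbered libraries were paired. TYMS, the fluoropyrimidine target, moved by less than its libraries varied within a group, as did DCTPP1 and SAMHD1. The groups of TK1 overlapped too, at a log2 fold change of -0.25. Leaving out 1 library at a time gave -0.53 (without NT library 1) to -0.10, and the fit with same-numbered libraries paired gave -0.19. The groups did not overlap for 5 of the 9 enzymes, 1 above and 4 below, where they did not overlap for 28.9% of all genes tested, 14.5% above and 14.4% below. The median log2 fold change was -0.25 over the 9 enzymes and 0.023 over all genes tested. In bulk RNA, fewer cells in a given phase of the cycle and less RNA per cell cannot be told apart.

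**Figure D1:**
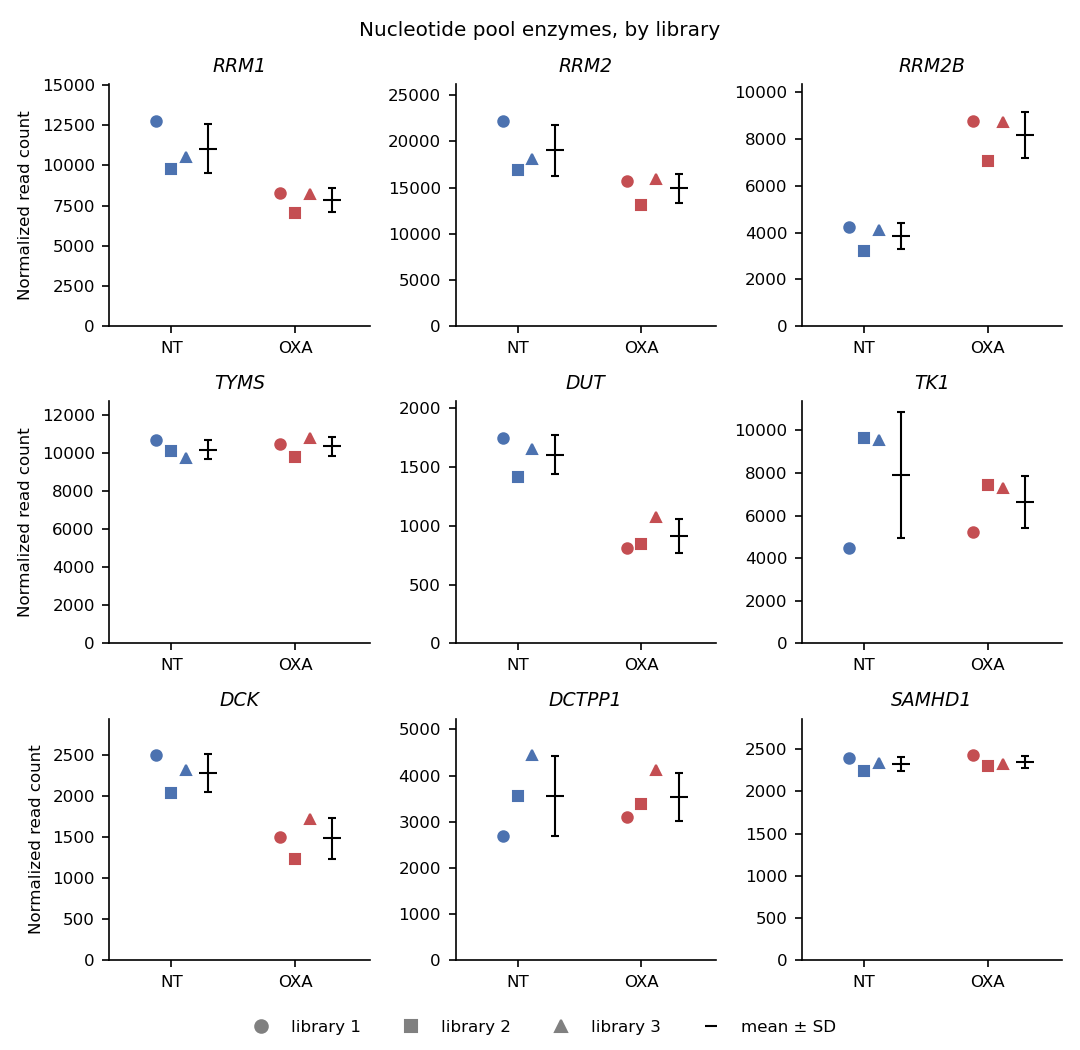
Normalized read counts of the 9 enzymes in each library, with NT in blue and OXA in red, the marker shape giving the library number, and bars giving mean ± SD of 3 libraries on an axis that starts at 0. The OXA libraries of RRM2B lie between 7042 and 8735, above every NT library, those of DUT between 812 and 1077, below every NT library, and the groups of TYMS, TK1, DCTPP1 and SAMHD1 overlap.

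RRM1 (ENSG00000167325, chr11:4094707-4138932, plus strand), the large subunit, had 12722, 9798 and 10523 normalized counts in NT libraries 1 to 3 and 8302, 7019 and 8235 in OXA libraries 1 to 3. Every OXA library lay below every NT library, and NT library 1 was the highest of all. The means were 11014 ± 1522 and 7852 ± 722, a log2 fold change of -0.49 (SE 0.12, 95% interval -0.78 to -0.20), which was not called (edgeR adjusted p = 0.0674). With same-numbered libraries paired as blocks (the replicate block) the log2 fold change was -0.48 and the edgeR adjusted p was 0.00729. DESeq2 also called RRM1 (adjusted p = 0.0176).

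RRM2 (ENSG00000171848, chr2:10120698-10211725, plus strand), the S phase small subunit, had 22144, 16899 and 18034 normalized counts in NT and 15686, 13117 and 15891 in OXA. The highest OXA library lay below the lowest NT library, with a gap that was small beside the spread within each group. The means were 19025 ± 2759 and 14898 ± 1546, a log2 fold change of -0.35 (SE 0.13, 95% interval -0.65 to -0.052, edgeR adjusted p = 0.167). Within same-numbered pairs the log2 differences were -0.50, -0.37 and -0.18, all downwards, and with the replicate block the edgeR adjusted p was 0.0214.

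RRM2B (ENSG00000048392, chr8:102204502-102238961, minus strand), the p53-induced small subunit, had 4238, 3219 and 4089 normalized counts in NT and 8735, 7042 and 8713 in OXA. The groups were far apart, and library 2 was the lowest of its group in both. The mean rose from 3849 ± 551 to 8164 ± 971, a log2 fold change of 1.08 (SE 0.14, 95% interval 0.77 to 1.40, edgeR adjusted p = 0.00802). The rise was 2.06-, 2.19- and 2.13-fold in pairs 1, 2 and 3. The log2 fold change was larger than that of 98.6% of the genes tested. The call was lost without OXA library 1, at an edgeR adjusted p of 0.0566.

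Since RRM2 and RRM2B compete for the same partner, their balance was taken within each library, from counts per kilobase of the canonical transcript. RRM2B made up 11.6%, 11.5% and 13.4% of the small subunit transcripts per kilobase in NT and 27.5%, 26.8% and 27.2% in OXA. The OXA libraries were close to each other and all above NT, with 12.2% ± 1.08 in NT and 27.2% ± 0.364 in OXA. RRM2 thus remained the more abundant small subunit transcript per kilobase in all 6 libraries. The ratio of RRM2B to RRM2 per kilobase was 0.131, 0.130 and 0.155 in NT and 0.380, 0.366 and 0.374 in OXA, a log2 difference of 1.44 or 2.71-fold. The 2-sided exact permutation test gave p = 0.1, the smallest it can give with 3 libraries against 3, and 0.133 after adjustment over the 4 ratios compared.

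The ratio of RRM2 to RRM1 per kilobase moved far less. It was 1.68, 1.66 and 1.65 in NT and 1.82, 1.80 and 1.86 in OXA. The OXA libraries again lay above all NT libraries, by a log2 difference of 0.14 or 1.10-fold (exact permutation p = 0.1, adjusted 0.133). The log2 differences within pairs lay between 0.12 and 0.17. Although RRM1 and RRM2 differed between libraries widely, their ratio within a group spanned a narrow range.

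**Figure D2:**
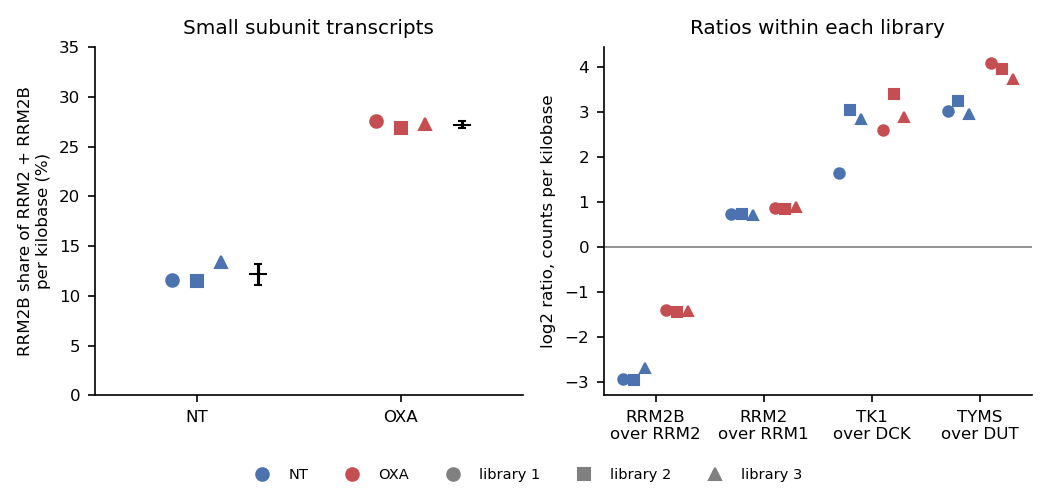
Left, the RRM2B share of RRM2 plus RRM2B counts per kilobase in each library (%), with mean ± SD. Right, 4 ratios of counts per kilobase within each library on a log2 axis, NT in blue and OXA in red. The RRM2B share lies between 11.5% and 13.4% in NT and between 26.8% and 27.5% in OXA, and only the TK1 to DCK ratio overlaps between the groups.

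TYMS (ENSG00000176890, chr18:657653-673578, plus strand) had 10688, 10110.1 and 9731 normalized counts in NT and 10473, 9817 and 10768 in OXA. The libraries of both groups were interleaved, and the spread in a group was under 5% of the mean, at 4.74% in NT and 4.70% in OXA. The log2 fold change was 0.025 (SE 0.084, 95% interval -0.17 to 0.22, edgeR adjusted p = 0.898). The interval runs from a fold of 0.889 to 1.16, which bounds the change that these libraries leave room for. The 3′ part of TYMS overlaps ENOSF1 on the opposite strand by 967 exonic bases. ENOSF1 had between 755 and 1140 raw counts and was not called (log2 fold change -0.12, edgeR adjusted p = 0.609), and the strand setting of the counting is not given in the sources used here.

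DUT (ENSG00000128951, chr15:48331011-48343373, plus strand), the dUTPase, had 1744, 1419 and 1651 normalized counts in NT and 812, 841 and 1077 in OXA. Every OXA library lay below every NT library, and library 3 was the highest OXA library. The mean fell from 1605 ± 167 to 910.3 ± 145, a log2 fold change of -0.82 (SE 0.14, 95% interval -1.15 to -0.49, edgeR adjusted p = 0.0222). Only 1.66% of the genes tested had a smaller log2 fold change. The call was lost without NT library 3 (edgeR adjusted p = 0.0848), without OXA library 1 (0.119) and without OXA library 2 (0.107), and with both libraries 1 left out (0.0754). The annotation names 8 DUT pseudogenes, none of which has a row in the table, so reads shared with them cannot be told apart from reads of DUT. The same holds for 3 pseudogenes of RRM2 and 2 of TYMS. DUT also overlaps the antisense gene DUT-AS1 by 233 exonic bases, as RRM1 does RRM1-AS1 by 63 and TYMS does TYMSOS by 106. Without a known strand setting, reads of such a pair cannot be told apart. SAMHD1 overlaps TLDC2 on the opposite strand by 205 exonic bases, but TLDC2 had only 1 to 12 raw counts in a library.

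The ratio of TYMS to DUT per kilobase was 8.14, 9.46 and 7.82 in NT and 17.1, 15.5 and 13.3 in OXA. The groups did not overlap, and the log2 difference was 0.85 or 1.80-fold (exact permutation p = 0.1, adjusted 0.133). It lay between 0.71 and 1.07 in the 3 pairs. TYMS and DUT, which act in succession on the way from dUTP to dTMP, therefore had unequal transcript changes within the same libraries.

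TK1 (ENSG00000167900, chr17:78174091-78187233, minus strand), the thymidine kinase of S phase cells, had 4477, 9622 and 9569 normalized counts in NT and 5225, 7423 and 7281 in OXA. Library 1 was low in both groups, and the NT spread was 37.5% of the mean. The means were 7889 ± 2955 and 6643 ± 1231, a log2 fold change of -0.25 (SE 0.29, 95% interval -0.91 to 0.42, edgeR adjusted p = 0.675). Pair 1 moved up by 0.22 on the log2 scale, whereas pairs 2 and 3 moved by -0.37 and -0.39. Without NT library 1 the log2 fold change was -0.53 (edgeR adjusted p = 0.0512), the lowest of the fits that left out 1 library, which reached up to -0.10. Without both libraries 1 it was -0.38 (edgeR adjusted p = 0.0658). With the replicate block it was -0.19 (edgeR adjusted p = 0.324).

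DCK (ENSG00000156136, chr4:70992538-71030914, plus strand), the deoxycytidine kinase that also activates cytarabine and gemcitabine, had 2501, 2037 and 2323 normalized counts in NT and 1509, 1234 and 1729 in OXA. The groups did not overlap, and library 2 was the lowest of both. The means were 2287 ± 234 and 1491 ± 248, a log2 fold change of -0.62 (SE 0.14, 95% interval -0.95 to -0.28), just outside the threshold (edgeR adjusted p = 0.0532). With the replicate block it was called at the same log2 fold change of -0.62 (edgeR adjusted p = 0.00700), as it was by DESeq2 (adjusted p = 0.00434) and without NT library 1 (edgeR adjusted p = 0.0452). The ratio of TK1 to DCK per kilobase ranged from 3.13 to 8.27 in NT and from 6.06 to 10.5 in OXA, with overlap (exact permutation p = 0.5). DCK overlaps MOB1B on the same strand by 29912 bases, with 0 shared exonic bases of the canonical transcripts. MOB1B had between 2172 and 2992 raw counts, and reads in the shared span could not be told apart by strand.

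DCTPP1 (ENSG00000179958, chr16:30423615-30430030, minus strand), the dCTP pyrophosphatase, had 2700.5, 3559.6 and 4438 normalized counts in NT and 3105, 3376 and 4111 in OXA. The values had the same order of libraries in both groups, 1 below 2 below 3, and the groups overlapped. The log2 fold change was -0.014 (SE 0.19, 95% interval -0.45 to 0.42, edgeR adjusted p = 0.978), so this fit does not bound a change of DCTPP1 closely. With the replicate block the log2 fold change was 0.0035 with a smaller SE of 0.075 (edgeR adjusted p = 0.978).

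SAMHD1 (ENSG00000101347, chr20:36890229-36951893, minus strand), the dNTP triphosphohydrolase, was the steadiest of the 9 in the NT and OXA libraries, with 2395, 2236 and 2337 normalized counts in NT and 2425, 2294 and 2325 in OXA. The groups overlapped, with means of 2322 ± 80.5 and 2348 ± 68.0. The log2 fold change was 0.016 (SE 0.082, edgeR adjusted p = 0.935), and the 95% interval ran from a fold of 0.887 to 1.15. The small values for TYMS and SAMHD1 turned sign under some other scalings and filters, and that of DCTPP1 with limma-voom, with the replicate block and with some libraries left out, so none of the 3 is given a direction.

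**Figure D3:**
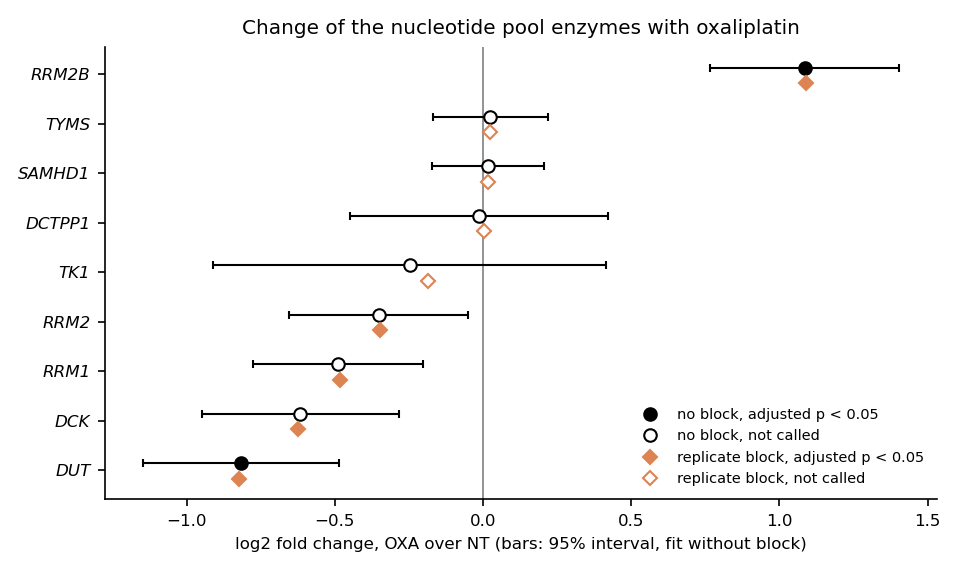
Log2 fold change (OXA over NT) of the 9 enzymes, ordered by size. Circles are the fit without a block, with 95% intervals as bars, and diamonds are the replicate block fit, each filled where the edgeR adjusted p is under 0.05. RRM2B and DUT are filled in both fits, RRM1, RRM2 and DCK in the blocked fit alone, and the intervals of TYMS and SAMHD1 are the narrowest around 0.

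With the replicate block, 1 of the 9 enzymes was higher (RRM2B) and 4 were lower (RRM1, RRM2, DUT and DCK), where 12.1% of all genes tested were called higher and 10.9% lower in that fit. Without both libraries 1, 1 was higher and 0 lower by edgeR, with 4 lower at an unadjusted p under 0.05. That fit had 1479 higher and 1483 lower of all genes at this unadjusted threshold. At an unadjusted p under 0.05 in the fit of all 6 libraries the same 5 enzymes passed, beside 1463 higher and 1517 lower of 13727 genes. DESeq2 called 1 higher and 3 lower, beside 604 and 571 of all genes.

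Across genes, levels were compared as CPM per kilobase of the canonical transcript, where CPM is the count scaled to a fixed library total. In NT the order was TYMS (176 ± 8.33), RRM2 (163 ± 23.6), TK1 (154 ± 57.6), RRM1 (97.7 ± 13.5), DCTPP1 (84.2 ± 20.5), DCK (25.4 ± 2.60), RRM2B (22.5 ± 3.22), DUT (20.9 ± 2.18) and SAMHD1 (13.9 ± 0.483). Of the neighbours in this order, only DCTPP1 and DCK, and DUT and SAMHD1, did not overlap over the 3 libraries. The untreated enzymes thus fell into 5 with levels of 84.2 and above and 4 with levels of 25.4 and below. In OXA, RRM2B stood at 47.7 ± 5.67, between RRM1 at 69.7 ± 6.41 and DCK at 16.6 ± 2.76, without overlap with either. DUT, at 11.9 ± 1.89, became the lowest, though its libraries overlapped with those of SAMHD1 at 14.1 ± 0.408. How the counting treated reads shared with pseudogenes of DUT, RRM2 and TYMS is not known. This limits the order of the levels between genes and the size of the TYMS to DUT ratio.

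Cell cycle and p53 target genes moved with these changes. Of 22 S phase markers, such as the MCM helicase subunits, CDC6 and DTL, 17 were lower and 0 higher, all 22 had negative log2 fold changes (median -0.71), and DESeq2 called 19 lower and 0 higher. At an unadjusted p under 0.05, 22 were lower and 0 higher. Their summed raw counts ran from 135351 to 156074 in NT and from 75404 to 102706 in OXA. Leaving out 1 library at a time gave between 3 and 22 lower, with 3 without OXA library 1 and 6 without OXA library 2, and 17 were lower without both libraries 1. With the authors' normalized values 6 were lower. Of 20 G2 and mitosis markers, 4 were lower, 19 had negative log2 fold changes (median -0.32), and 14 were lower with the replicate block. DESeq2 called 7 lower and limma-voom 3, and 12 were lower at an unadjusted p under 0.05. Of all 13727 genes tested, 2.29% were called lower and 2.78% higher, and 10.9% were lower with the replicate block. DESeq2 called 571 of all genes lower and limma-voom 289, and 1517 were lower at an unadjusted p under 0.05. Of 19 p53 targets tested, none of which is among the 9 enzymes, 18 were higher (median 1.56). The part of these shifts in the values of RRM2B, DUT, DCK, RRM1 and RRM2 was not tested. RRM1 (-0.49), RRM2 (-0.35) and DCK (-0.62) had log2 fold changes between the medians of the S phase and the G2 and mitosis markers. That of DUT (-0.82) was below both medians, but inside the S phase marker range of -1.17 to -0.41. RRM1 and DCK were inside that range too, whereas RRM2 fell less than every S phase marker. Those of the other enzymes were above both medians, TK1 (-0.25) and TYMS (0.025) among them.

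The genes whose pattern over the 6 libraries was most like that of a called enzyme were found by the root mean square difference of log2 levels centred on each gene's mean, among 12059 genes with at least 50 normalized counts on average. For RRM2B the nearest was TRIAP1 (difference 0.0524, log2 fold change 1.14, edgeR adjusted p = 0.00489), which encodes a mitochondrial lipid transfer protein, followed by TIGAR (0.0763, log2 fold change 1.20, edgeR adjusted p = 0.00345), a fructose bisphosphatase. For DUT the nearest was DSN1 (0.0450, log2 fold change -0.78, edgeR adjusted p = 0.0196), a kinetochore subunit, followed by PRIMPOL (0.0616, log2 fold change -0.73, edgeR adjusted p = 0.0599), a primase polymerase. These genes were picked for a like pattern over the same 6 libraries. Their log2 fold changes were thus largely set by that choice and add no support to the calls.

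The rest of nucleotide metabolism was read from 8 lists, of which 94 other genes are given here, 85 of them tested. Of these, 4 were higher and 2 lower, with a median log2 fold change of 0.034, beside 5.07% called and a median of 0.023 among all genes tested. With the replicate block 11 were higher and 9 lower, beside 12.1% and 10.9% of all genes in that fit. In 27 of the 85 the groups did not overlap, beside 28.9% of all genes tested. These shares lie near those of all genes.

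The 13 thymidylate and folate genes given here had log2 fold changes between -0.44 and 0.099 (median -0.11), and 3 of them were lower with the replicate block, SHMT1, MTHFD1 (edgeR adjusted p = 0.0259) and GGH (0.0277). SHMT1, a serine hydroxymethyltransferase that makes the folate cofactor of TYMS, was not called at means of 2788 ± 207 (NT) and 2307 ± 184 (OXA) normalized counts (edgeR adjusted p = 0.168, log2 fold change -0.27, SE 0.10), whereas the replicate block gave 0.0173. UNG, the glycosylase that removes uracil from DNA, fell from 6212 ± 526 to 3476 ± 321 (log2 fold change -0.84, SE 0.11, edgeR adjusted p = 0.00802), and was lost without OXA library 1 (edgeR adjusted p = 0.0587). The other 3 genes of uracil excision were not called. One of them, TDG, which excises thymine and uracil from mismatches with guanine, had a log2 fold change in the other direction (0.39, edgeR adjusted p = 0.144), and was called higher with the replicate block (0.0186).

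In purine synthesis 1 of 13 genes was called. PRPS2, which makes phosphoribosyl pyrophosphate, fell from 3946 ± 409 to 2416 ± 137 (log2 fold change -0.71, SE 0.10, edgeR adjusted p = 0.0118), a call lost without OXA library 1 (0.0718), 2 (0.0690) or 3 (0.0562). With the replicate block GMPS (0.0184) and ADSS1 (0.0347) were lower as well. In pyrimidine synthesis edgeR called 0 of 5 genes, with 1 higher and 1 lower at an unadjusted p under 0.05, and DESeq2 and limma-voom called 0. The gene with the smallest p was CTPS2, a CTP synthase (log2 fold change -0.44, edgeR adjusted p = 0.0936, with the replicate block 0.0165).

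Among 23 salvage enzymes and nucleotide kinases, edgeR called 1, NME1, a nucleoside diphosphate kinase, where DESeq2 called 2 higher. NME1 rose from 16351 ± 765 to 23721 ± 898 (log2 fold change 0.54, SE 0.083, edgeR adjusted p = 0.0150), and its reads may be shared with the near-identical NME2. The call was lost on leaving out any library but NT library 1, at edgeR adjusted p-values from 0.0523 to 0.0978. It was also lost with limma on the authors' normalized values (adjusted p = 0.0690). Larger log2 fold changes that were not called belonged to AK1, an adenylate kinase (0.87, edgeR adjusted p = 0.0796), and CMPK2, a mitochondrial nucleotide kinase (-0.88, edgeR adjusted p = 0.0777). With the replicate block 3 genes were higher, NME1, AK1 (0.0111) and NME2 (0.0391), and 1 was lower, CMPK2 (0.0334). The mitochondrial counterparts of TK1 and DCK were not called, with log2 fold changes of -0.28 for TK2 (edgeR adjusted p = 0.480) and 0.067 for DGUOK (edgeR adjusted p = 0.737).

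In nucleotide cleavage and breakdown 3 of 15 tested genes rose, 0 fell, and the median was 0.34. Among all genes tested 2.78% were higher and 2.29% lower, with a median of 0.023. They were AMPD3, an AMP deaminase (log2 fold change 0.80, SE 0.11, edgeR adjusted p = 0.00975), GDA, the guanine deaminase (0.58, SE 0.098, edgeR adjusted p = 0.0209), and NT5E, the cell surface 5′-nucleotidase CD73 (0.50, SE 0.11, edgeR adjusted p = 0.0485). At an unadjusted p under 0.05, 6 were higher and 0 lower, DESeq2 called 3 higher and limma-voom 2, and the replicate block gave 5 higher, adding PNP (0.00919) and AMPD2 (0.0236). Of 13727 genes tested, 1463 were higher at an unadjusted p under 0.05 and 12.1% with the block. DESeq2 called 604 of all genes higher and limma-voom 375. NT5E also missed the threshold with RLE factors (0.0522), upper quartile factors (0.0501), no filter (0.0534), limma-voom (0.0524) and the authors' values (0.151). With limma on the authors' values GDA missed it too (adjusted p = 0.0629), whereas AMPD3 passed (adjusted p = 0.0352). AMPD3 was lost without any 1 of the OXA libraries (edgeR adjusted p from 0.0538 to 0.0691), and GDA (0.0580 to 0.116) and NT5E (0.0885 to 0.194) on leaving out any library but NT library 1.

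A few genes known from fluoropyrimidine metabolism, picked after their values were seen, were also looked up. DPYD, which degrades 5-fluorouracil, was low, with means of 169 (NT) and 123 (OXA) normalized counts (log2 fold change -0.46, edgeR adjusted p = 0.254). Those of the activating route had log2 fold changes of 0.38 for TYMP (edgeR adjusted p = 0.513), 0.0021 for UPP1 (0.997) and 0.034 for UMPS (0.884). In pool clean-up (6 genes) and nucleoside transport (6 tested) edgeR called 0, as did DESeq2 and limma-voom, with 0 at an unadjusted p under 0.05. The smallest p belonged to ITPA, which hydrolyses inosine triphosphate (log2 fold change 0.46, edgeR adjusted p = 0.256, with the replicate block 0.0470), and to the mitochondrial carrier SLC25A36 (log2 fold change -0.18, edgeR adjusted p = 0.309). With the replicate block ITPA and NUDT16 (0.0301), another inosine nucleotide hydrolase, were higher.

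**Figure D4:**
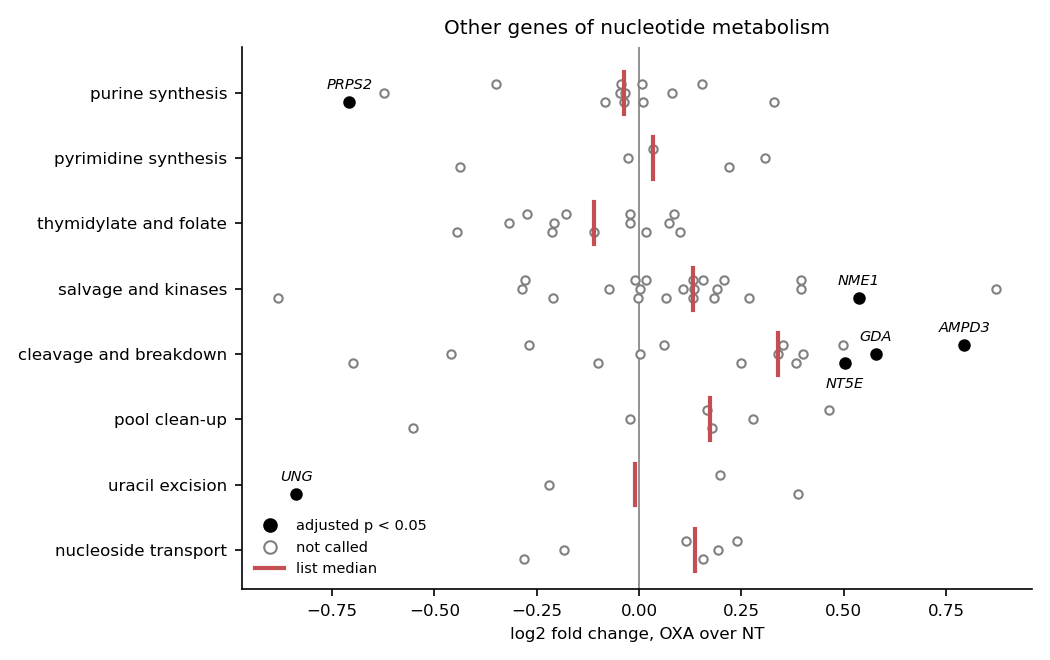
Log2 fold change (OXA over NT) of 85 tested genes of 8 nucleotide metabolism lists, 1 row per list and 1 point per gene, with the list median as a red bar. Filled and named points have an edgeR adjusted p under 0.05: PRPS2 and UNG on the left, and NME1, NT5E, GDA and AMPD3 on the right.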

How the data were processed

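Libraries were mapped to conditions and replicate numbers by their labels. The submitters' processing notes name Trimmomatic 0.32, STAR 2.7.5b, RSEM 1.3.3 and DESeq2, with GRCh38. The authors deposited whole-number raw counts per gene and library, used here as deposited. The deposited normalized signal, raw counts multiplied by factors that differ between genes, served only as an alternative, on log2(value + 1). Counting program, annotation and strand setting are not given in the sources used here.

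Genes were filtered with filterByExpr (minimum count 10, minimum total 15), scaled by TMM and tested by edgeR's quasi-likelihood test (edgeR 4.0.16, R 4.3.3) with Benjamini-Hochberg adjustment over 13727 genes. The standard error is the log2 fold change divided by the square root of F. Ratios were compared by 2-sided exact permutation tests. Positions, overlaps and transcript lengths came from GENCODE on GRCh38. The steps were tested on simulated data.

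NT and OXA libraries of 1 number shared their deviations from the group means (correlations 0.547, 0.542 and 0.307, against -0.467 to 0.0904 for different numbers). The numbers come from the labels, and what a number stands for is not stated. Blocked values are therefore given where they change the call of an enzyme or a named gene, or a count, and for TK1 and DCTPP1.

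Alternatives were other scalings and filters, DESeq2 1.42.0, limma-voom (limma 3.58.1), the authors' values, a block for the replicate number, and leaving out each library. Leaving out both libraries 1 was chosen after seeing the data. Named genes are the 9 enzymes, CDKN1A, the called genes of each pathway list or else the gene with the smallest p, and the 2 genes most like each called enzyme. EPCAM, CDX1, VIL1, COL1A1, ENOSF1, MOB1B, TK2, DGUOK, DPYD, TYMP, UPP1, UMPS and the pathway genes called with the replicate block but not without it were added after their values were seen. The 9 enzymes and the lists were chosen with earlier results of these data known. Some genes that these lists and rules select are not reported here and are left out of the counts of the lists.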

Additional observations from a re-analysis of the deposited data

How the results depend on the processing

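RRM2B kept its direction in all 16 alternatives and its call in 14, and DUT kept its direction in all 16 and its call in 11. RRM1, RRM2 and DCK stayed below NT in all 16. The number of enzymes called lower, 1 in the report, was 3 with upper quartile factors, with library totals only, with the stricter filter and with DESeq2, 2 with no filter, and 4 with the replicate block. With limma on the authors' normalized values 0 were higher and 0 lower, with 1 and 3 at an unadjusted p under 0.05. Of all genes, 1213 were higher and 1288 lower at that unadjusted threshold. RRM2B then had an adjusted p of 0.0591 and DUT one of 0.0731. Without both libraries 1, 0 were lower. Leaving out 1 library at a time gave 0 to 1 higher and 0 to 2 lower by edgeR, with at most 4 lower at an unadjusted p under 0.05. In those fits 987 to 1748 of all genes were lower at that unadjusted threshold. Over all genes, 381 higher and 315 lower became 604 and 571 with DESeq2, 159 and 99 with the authors' values, 1664 and 1493 with the replicate block and 219 and 165 without both libraries 1. The lower count was 493 with upper quartile factors, 511 with library totals and 479 with the stricter filter. Leaving out 1 library gave 66 to 623 higher and 19 to 571 lower. Of the pathway genes, 1 was higher with the authors' values, 11 higher and 9 lower with the block, and 0 to 7 higher and 0 to 6 lower by edgeR with 1 library left out, with 6 to 14 higher and 6 to 13 lower at an unadjusted p under 0.05. The block changed no other call of the 9 enzymes than RRM1, RRM2 and DCK. The cause of these differences was not tested.

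Small values turned sign. TYMS went to -0.015 with upper quartile factors and with library totals, -0.0034 with no filter, -0.0038 with the stricter filter, and between -0.039 and 0.062 with 1 library left out. DCTPP1 went to 0.0053 with limma-voom, 0.0035 with the block and between -0.18 and 0.15 with 1 library left out. SAMHD1 went to -0.024 with upper quartile factors and with library totals, -0.013 with either filter setting, -0.11 with the authors' values and between -0.043 and 0.039 with 1 library left out. No ratio reversed. With 3 libraries per group, exact tests cannot go below p = 0.1, and counting error covers only part of the spread between libraries.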
